A study of Mus musculus with 6 samples.

Results

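Semaphorins, ephrins, Slits and netrins, together with their receptors the neuropilins, plexins, Eph receptors, Robo, Unc5, Dcc and Neo1 proteins, were followed in somatic cells of the E11.5 gonad, from XY mouse embryos of the C57BL/6 strain. Members were taken by gene symbol: every gene of these families that the deposited tables list, plus Dcc and Neo1. The tables list 48 of them among 11736 genes, out of 70 protein-coding genes of the same names in the GENCODE M21 annotation. The comparison set 3 Cdyl-Het libraries (heterozygous embryos, here Het 1 to Het 3) against 3 Cdyl-KO libraries (homozygous mutants, here KO 1 to KO 3), and asked which genes depend on Cdyl. All 6 libraries also share the genotype Nr5a1-hCD271, in which human CD271 serves as a surface tag, and the cells were isolated by magnetic sorting for that tag. The heterozygous cells are therefore not wild type. The form of the Cdyl mutation, and whether each library is 1 embryo or a pool, are not stated in the labels, so the p-values measure the spread between these libraries, which may be technical.

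Guidance cues were first described for growing axons. Semaphorins act through plexins, and most of the secreted class 3 members need a neuropilin as co-receptor. Ephrins on a cell bind Eph receptor kinases on another, and Slits bind Robo receptors. Netrins bind Dcc and Neo1, which attract, and Unc5 proteins, which repel. The same systems steer endothelial, epithelial and mesenchymal cells, set tissue boundaries and control cell adhesion outside the nervous system. The protein made from Cdyl reads histone methylation through its chromodomain and is known as a corepressor, among others of the neuronal gene repressor REST.

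Levels are given as scaled RPKM, that is reads per length of gene and per depth of library, divided by a scaling factor for each library. Changes are Cdyl-KO minus Cdyl-Het in log2(scaled RPKM + 1), so that those of genes with low levels come out too small, and were tested with limma, adjusted by Benjamini-Hochberg over all 11736 genes, at a threshold of 0.05. Depth, worked out from the values, ranged from 34.6 M to 45.2 M reads per library, and the 48 genes then rest on 206 to 15927 reads each per library. Cdyl itself was at 7.77, 8.06 and 8.22 in Cdyl-Het and at 6.77, 6.93 and 7.07 in Cdyl-KO (log2 change -0.19, limma adjusted p = 0.0702), and where these reads lie relative to the mutation is not known, so they do not check the labels. Of 10 markers of gonadal somatic cells 8 were listed: Emx2, Nr0b1 and Lhx9 rose (log2 changes 0.57, 0.50 and 0.46, limma adjusted p = 0.0129, 0.00907 and 0.0273), and 5 did not pass, among them Nr5a1, Gata4 and Wt1, which were at 66.3 to 93.98 in all 6 libraries. Lhx9 lost its call without Het 2 or any 1 KO library (adjusted p up to 0.0874). None of 10 germ cell markers was listed (0 of 10), and 2 of 14 nerve and neural crest markers were, of which Tubb3 rose. Of 14 endothelial markers, 10 were listed and 5 of them were lower in Cdyl-KO.

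Of the 48 listed guidance genes, 6 rose in Cdyl-KO, 9 fell and 33 did not pass the threshold. The 15 that passed make up 31.2% of the 48, beside 7.50% of all genes tested; those higher make up 12.5%, beside 4.67% of all genes, and those lower 18.8%, beside 2.83%. Unc5a had the largest rise, to 3.01 times its heterozygous level, followed by Sema3c, Epha7, Plxna4, Sema6d and Neo1. Sema3d had the largest fall, to 0.461 times, and Plxnc1, Epha4, Sema3g, Nrp2, Sema5a, Efnb2, Sema6c and Robo1 fell by less, here in order of log2 change. The 2 groups did not overlap for 31 of the 48 genes (64.6%, beside 31.6% of all genes). The median log2 change of the 48 genes was 0.05 and that of all genes 0.00; on the deposited values, without scaling, they were -0.07 and -0.12. Ligands and receptors were both split: of 24 ligands 2 rose and 5 fell, and of 24 receptors 4 rose and 4 fell.

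These counts depend on scaling and on each library. On the deposited values 4 members were higher and 15 lower, beside 2.60% and 13.3% of all genes. With 1 library left out, the counts higher and lower were 4 and 9 (Het 1 left out), 2 and 5 (Het 2) and 3 and 2 (Het 3). Without a KO library they were 2 and 3 (KO 1), 2 and 4 (KO 2) and 4 and 5 (KO 3). Over all genes, too, each of these fits called fewer than the 880 of the main fit, with the range given at the end. That range is not split by direction. Whether the members lost calls faster than all genes was therefore not tested. Unc5a, Plxna4, Sema3d and Epha4 passed in all 6 of these fits. No called gene changed direction under any of the 13 alternatives.

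**Figure D1:**
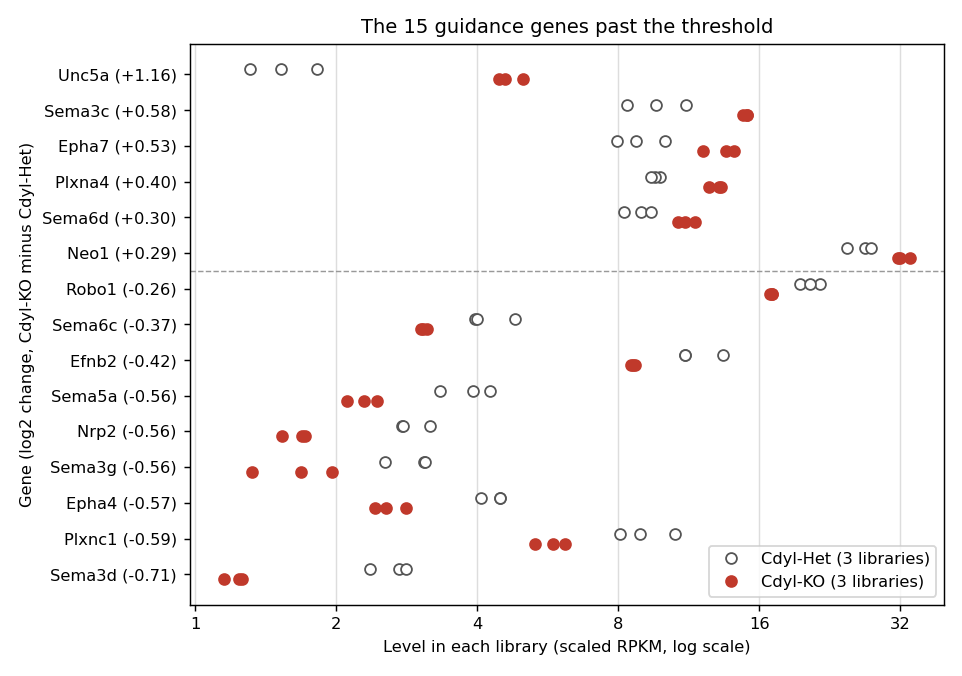
Level of each of the 15 guidance genes past the threshold in each library (scaled RPKM on a log axis; open circles Cdyl-Het, filled circles Cdyl-KO), ordered by log2 change, with the genes that rose above the dashed line. In every row the 3 Cdyl-KO values lie on one side of the 3 Cdyl-Het values and Unc5a shows the widest gap.

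The promoters of 4 genes that the results turn on are shown as RefSeq sequence of build GRCm38.p6, the 250 bases before the annotated start, 5′ to 3′ on the gene's strand. Unc5a, Sema3d and Epha4 kept their call in every fit that left out 1 library, and Epha7 is the member of the EphA group that moved against Epha4. Capitals mark the GC box GGGCGG, searched on both strands, overlapping copies included.
Unc5a, chr13:54949161-54949410, plus strand: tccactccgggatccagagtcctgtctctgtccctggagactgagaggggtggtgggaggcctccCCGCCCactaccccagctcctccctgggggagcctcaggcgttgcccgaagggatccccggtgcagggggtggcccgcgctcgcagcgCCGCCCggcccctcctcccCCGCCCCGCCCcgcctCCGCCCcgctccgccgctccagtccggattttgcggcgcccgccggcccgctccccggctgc
Epha7, chr4:28812881-28813130, plus strand: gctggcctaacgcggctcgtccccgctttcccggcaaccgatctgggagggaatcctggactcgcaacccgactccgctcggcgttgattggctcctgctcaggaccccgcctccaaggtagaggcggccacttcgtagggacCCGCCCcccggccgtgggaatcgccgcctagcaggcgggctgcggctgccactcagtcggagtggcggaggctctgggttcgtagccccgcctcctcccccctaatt
Epha4, chr1:77515089-77515338, minus strand: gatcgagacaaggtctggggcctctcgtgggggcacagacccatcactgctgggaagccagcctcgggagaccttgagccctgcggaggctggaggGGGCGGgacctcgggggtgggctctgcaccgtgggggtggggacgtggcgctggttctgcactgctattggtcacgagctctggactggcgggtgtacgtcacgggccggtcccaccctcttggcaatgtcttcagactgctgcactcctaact
Sema3d, chr5:12382916-12383165, plus strand: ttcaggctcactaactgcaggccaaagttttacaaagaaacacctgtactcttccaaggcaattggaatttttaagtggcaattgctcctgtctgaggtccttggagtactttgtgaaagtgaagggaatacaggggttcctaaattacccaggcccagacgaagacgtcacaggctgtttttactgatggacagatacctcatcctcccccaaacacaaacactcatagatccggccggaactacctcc
The Unc5a window held 5 GC boxes and 25 CpG dinucleotides at 76.8% G and C, that of Epha7 1 box and 25 CpG at 69.2%, and that of Epha4 1 box and 14 CpG at 66.0%. Sema3d differed from these 3, with 0 boxes and 4 CpG at 46.8% G and C; its RefSeq start does not lie in a GENCODE transcript of the gene, so another start may be in use. The table held 52 promoters for 43 of the 48 genes. A GC box was in 38 of the 52 (73.1%), in 59.7% of the promoters of all listed genes and in 32.7% of all promoters in the table. The median CpG count was 25 in 7 promoters of genes that rose and 14.5 in 10 promoters of genes that fell, beside 16 in those of all listed genes. Genes with more than 1 promoter (Epha7, whose windows overlap, Sema6d and Sema6c) count more than once here, and Plxna4 has none. The left part of the REST site, TTCAGCACC on either strand, was in 0 of the 52 and in 0.301% of all promoters. At that rate 52 promoters would seldom hold a copy, and bases outside these windows were not searched. The 0 therefore cannot tell whether these genes lack REST sites. The inner part of the REST site was in 1 of the 52 (Robo2, 1.92%) and in 0.134% of all promoters. That Robo2 window (chr16:75447294-75447543) lies outside the annotated gene, and its start is not in a GENCODE transcript of Robo2. The window at the annotated start (chr16:74411826-74412075) held 0.

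Netrin receptors included the largest rise. Unc5a encodes a receptor for repulsive netrin signals and is best known from neurons. Its levels were 1.53, 1.31 and 1.82 scaled RPKM in Het 1 to 3 and 4.44, 4.58 and 5.002 in KO 1 to 3. All 3 Cdyl-KO libraries were far above the highest Cdyl-Het library. The rise was 1.16 on the log2 scale (SE 0.09, 95% confidence interval 0.94 to 1.38, adjusted p = 0.00184) and was 1.08 to 1.23 with any 1 library left out. Unc5a lies on chromosome 13 (54949411 to 55006018, mm10), and its exons overlap those of Hk3 on the opposite strand; the strand setting of the authors' counting is not given, so the part of Hk3 in these reads was not tested. Of 14 markers of nerve and neural crest, 2 were listed, and 1 of them rose with Unc5a. Tubb3, a tubulin of neurons, was at 1.33, 0.709 and 1.87 against 3.24, 4.61 and 4.22 (log2 change 1.15, limma adjusted p = 0.0195). Its call was lost without KO 2 or KO 3 (adjusted p up to 0.0624). Stmn2, at a mean of only 1.15 scaled RPKM over all 6 libraries, did not pass (adjusted p = 0.290). The larger group mean of every listed gene is at least 1.005 (deposited value). Stmn2, with a log2 change of 0.34, is near this floor and is listed through its Cdyl-KO level. The sum of these 2 listed markers was 1.28 to 3.16 in Cdyl-Het and 4.31 to 6.39 in Cdyl-KO, a gap that this filter favours. The other 12 of the list were not analysed here, and the part of these markers in the rise of Unc5a was not tested. Neo1 encodes neogenin, a receptor for netrins and for repulsive guidance molecules, and lies on chromosome 9 (58874687 to 59036441). It was at 26.9, 27.8 and 24.6 scaled RPKM in Cdyl-Het and at 33.6, 31.7 and 31.999 in Cdyl-KO, without overlap (log2 change 0.29, SE 0.06, adjusted p = 0.0348). This call was lost in each of the 6 fits with a library left out (adjusted p = 0.0630 to 0.111), on the deposited values (0.116) and without the trend (0.0519; 0.0221 to 0.116 over all alternatives).

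The other Unc5 genes differed from Unc5a. Unc5b, also a receptor of endothelial cells, was at 5.35, 4.72 and 4.32 scaled RPKM against 5.68, 6.03 and 5.83, which did not overlap but did not pass (adjusted p = 0.0977). Unc5c was at 5.41 ± 0.331 and 5.39 ± 0.127 (SD, n = 3 per group), and the 95% interval of its log2 change was -0.14 to 0.14. Unc5a thus went from 13.2% ± 2.30 to 29.4% ± 1.15 of the summed Unc5 level. Neo1 had the highest level of the 4 in all 6 libraries and Unc5a the lowest; the ranges of Unc5b and Unc5c in Cdyl-Het overlapped (4.32 to 5.35 and 5.12 to 5.77). The summed level of the 4 netrin receptors was 36.1 to 39.6 in Cdyl-Het and 47.8 to 48.98 in Cdyl-KO. The netrin genes Ntn1, Ntn3, Ntn4 and Ntn5 and the receptors Dcc and Unc5d are not in the tables and were not analysed here.

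**Figure D2:**
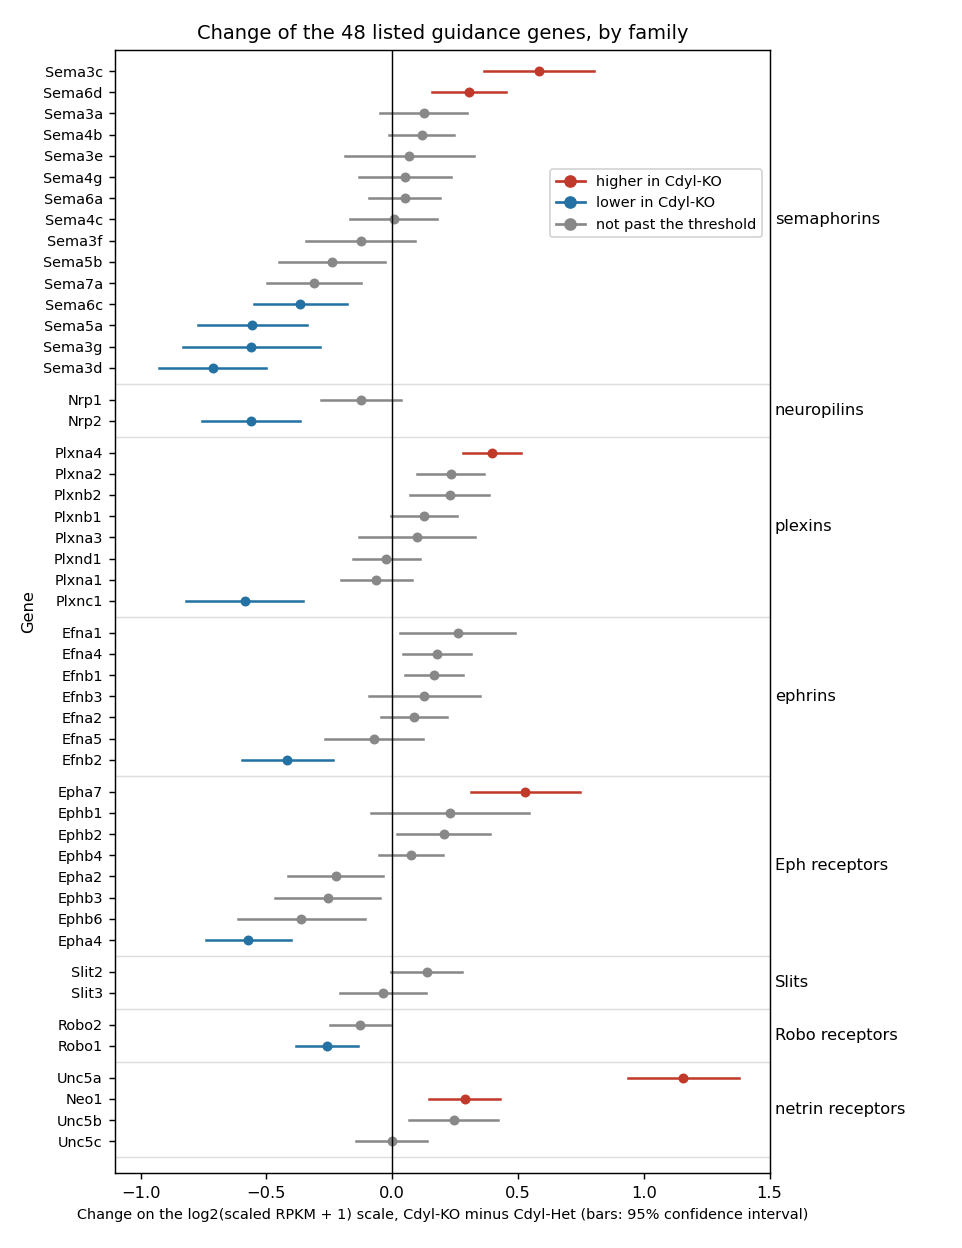
Change of each of the 48 listed guidance genes, grouped by family (log2 scale, Cdyl-KO minus Cdyl-Het; points are limma estimates and bars 95% confidence intervals). The 6 genes that rose and the 9 that fell are coloured; the semaphorins, plexins and Eph receptors each hold a gene on either side of 0 that passed the threshold, and Unc5a stands farthest to the right.

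Class 3 semaphorins, the secreted ones, changed in both directions. Sema3c, a cue for endothelial and neural crest cells that signals through either neuropilin, was at 11.2, 9.62 and 8.37 scaled RPKM in Cdyl-Het and at 15.04, 15.06 and 14.8 in Cdyl-KO. All 3 Cdyl-KO libraries were above all Cdyl-Het libraries and much closer to each other (log2 change 0.58, SE 0.09, adjusted p = 0.0157). Sema3d, a cue known from endothelial and heart development, was at 2.36, 2.72 and 2.82 in Cdyl-Het and at 1.15, 1.26 and 1.24 in Cdyl-KO (log2 change -0.71, SE 0.09, adjusted p = 0.00849). Sema3g, a cue made mainly by endothelium that binds Nrp2, was at 2.53, 3.08 and 3.09 against 1.32, 1.96 and 1.68 (log2 change -0.56, SE 0.12, adjusted p = 0.0335). In both of these genes the groups did not overlap. Sema3a, Sema3e and Sema3f had overlapping groups, with log2 changes of 0.12, 0.07 and -0.12 and adjusted p of 0.340, 0.736 and 0.447.

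The summed level of the 6 class 3 semaphorins was 30.8 to 32.8 scaled RPKM in Cdyl-Het and 33.2 to 35.3 in Cdyl-KO. On the deposited values, without scaling, the 2 groups overlap in this sum. Within the summed level Sema3c went from 30.6% ± 3.45 to 43.8% ± 1.75 (SD, n = 3 per group). Sema3d went from 8.33% ± 1.01 to 3.55% ± 0.118, and Sema3g from 9.18% ± 1.27 to 4.83% ± 0.880. Sema3c was thus the most abundant member on average in both groups; in Het 3 Sema3f was higher, at 30.8% against 27.2%. Sema3d (12383385 to 12588948), Sema3a (13125414 to 13602565), Sema3e (14025276 to 14256689) and Sema3c (17574281 to 17730268) follow each other on chromosome 5, and Sema3a and Sema3e, which lie between Sema3d and Sema3c, did not pass. The call of Sema3c was lost without Het 2, KO 1 or KO 2 (adjusted p = 0.05999, 0.0552 and 0.0507; 0.00848 to 0.05999 over all alternatives). That of Sema3g was lost without Het 2, Het 3, KO 1 or KO 3 (0.104, 0.119, 0.0813 and 0.0794; 0.0184 to 0.119 over all alternatives).

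**Figure D3:**
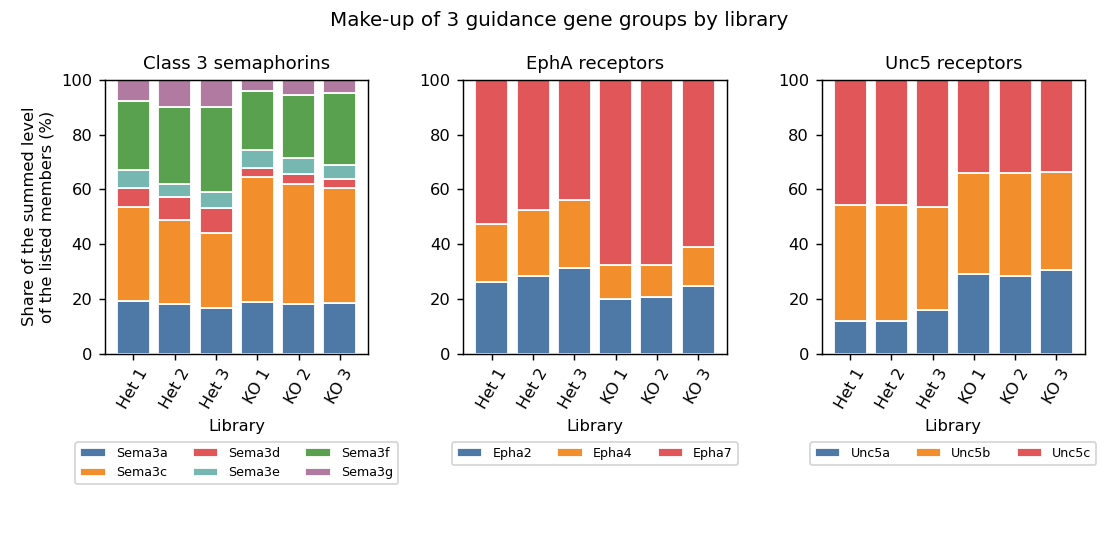
Share of each listed member in the summed level of its group, for each library (percent; 3 Cdyl-Het bars on the left and 3 Cdyl-KO bars on the right of each panel). In the Cdyl-KO libraries Sema3c takes 41.9% to 45.3% of the class 3 semaphorins, Epha7 61.1% to 67.7% of the EphA receptors and Unc5a 28.5% to 30.7% of the Unc5 receptors, each above every Cdyl-Het library.

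Of the neuropilins, the co-receptors of class 3 semaphorins, Nrp2 fell and Nrp1 did not pass. Nrp2 (chromosome 1, 62703285 to 62818695), known from veins, lymphatic vessels and mesenchyme, was at 2.77, 2.77 and 3.17 scaled RPKM in Cdyl-Het and at 1.53, 1.72 and 1.69 in Cdyl-KO, without overlap (log2 change -0.56, SE 0.08, adjusted p = 0.0128). The call was lost without Het 3 (adjusted p = 0.0544; 0.00908 to 0.0544 over all alternatives). Nrp1 was at 6.19, 5.80 and 5.41 against 5.50, 5.32 and 4.90, and the groups overlapped (log2 change -0.12, 95% interval -0.28 to 0.04). The summed neuropilin level was 8.57 to 8.96 in Cdyl-Het and 6.59 to 7.04 in Cdyl-KO, and Nrp1 made up 66.6% ± 3.16 and 76.1% ± 1.999 of it.

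Endothelial markers were lower in Cdyl-KO, as were Sema3g, Nrp2 and Efnb2, but not all guidance genes that endothelium is known to express. Of the 10 listed endothelial markers, 5 fell (Eng, Kdr, Tek, Cdh5 and Egfl7) and 5 did not pass, with log2 changes all below 0. Over all genes tested, 2.83% fell. Cdyl-KO was below Cdyl-Het without overlap for 9 of the 10, beside 14.5% of all genes. In limma 9 were lower at an unadjusted p under 0.05, and 7 to 10 with 1 library left out. Kdr kept its call with any 1 library left out, but the count of 5 was then 1 to 3: 2 without Het 1, Het 2, Het 3 or KO 3, 1 without KO 1 and 3 without KO 2. Their median log2 change was -0.49, and their summed level was 39.0 to 41.6 scaled RPKM in Cdyl-Het and 24.4 to 28.0 in Cdyl-KO. No listed marker was at 0 in any library; Flt1, Emcn, Sox17 and Erg were not in the tables. Ephb4, Plxnd1 and Unc5b, which endothelium expresses as well, did not pass, with log2 changes of 0.07, -0.02 and 0.24. Unc5b was higher in every Cdyl-KO library than in every Cdyl-Het library. The part of the endothelial signal in the falls of guidance genes was not tested, and in these bulk libraries fewer cells of a type and less RNA per cell cannot be told apart.

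Among plexins, the signalling receptors of semaphorins, Plxna4 rose and Plxnc1 fell. Plxna4 (chromosome 6, 32144268 to 32588192), which pairs with neuropilins and also binds class 6 semaphorins, was at 9.82, 9.595 and 9.41 scaled RPKM in Cdyl-Het and at 12.5, 13.3 and 13.1 in Cdyl-KO. The gap between the groups was wider than the spread in either (log2 change 0.40, SE 0.05, adjusted p = 0.00849). Its exons overlap those of Plxna4os3 on the opposite strand. Plxna2 had groups that did not overlap and missed the threshold (6.71 ± 0.346 and 8.06 ± 0.235, adjusted p = 0.0528; 0.0467 among genes with a mean of at least 2). Plxna1, the most abundant A-type plexin, was at 18.9 ± 1.04 and 18.0 ± 0.766, and Plxna3 at 4.24 ± 0.616 and 4.60 ± 0.405, with overlapping groups in both. Plxnb2 and Plxnd1 were the plexins of highest mean level and did not pass (37.3 ± 2.69 and 43.9 ± 1.94, adjusted p = 0.0873; 20.7 ± 0.751 and 20.3 ± 0.953, adjusted p = 0.832).

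Plxnc1 encodes the receptor of Sema7a, a semaphorin held in the membrane by a lipid anchor. Plxnc1 (chromosome 10, 94790866 to 94944835) was at 8.06, 10.6 and 8.91 scaled RPKM in Cdyl-Het and at 5.80, 5.31 and 6.17 in Cdyl-KO (log2 change -0.59, SE 0.10, adjusted p = 0.0189). Sema7a was at 6.11, 7.65 and 6.79 against 5.24, 5.22 and 5.47. Neither gene had overlapping groups, but Sema7a did not pass (log2 change -0.31, SE 0.08, adjusted p = 0.0597); it passed on the deposited values (0.0183), with upper-quartile scaling (0.0392) and without Het 1 (0.0347). Plxnc1 lost its call without Het 3, KO 1 or KO 2 (0.0707, 0.0587 and 0.0574; 0.00954 to 0.0707 over all alternatives). Exons of Plxnc1 overlap those of Gm48718 on the same strand.

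The membrane-bound semaphorins of classes 4 to 7 held 1 gene that rose and 2 that fell among 9. Sema6d, a ligand of A-type plexins, was at 8.93, 9.37 and 8.25 scaled RPKM in Cdyl-Het and at 11.1, 10.7 and 11.7 in Cdyl-KO (log2 change 0.30, SE 0.06, adjusted p = 0.0327). Its relative Sema6c was at 3.96, 4.003 and 4.81 against 3.03, 3.13 and 3.05 (log2 change -0.37, SE 0.08, adjusted p = 0.0374). Sema5a, which carries thrombospondin repeats, was at 3.32, 4.26 and 3.92 against 2.11, 2.30 and 2.44 (log2 change -0.56, SE 0.09, adjusted p = 0.0180). The groups overlapped in none of these 3 genes. Sema6d had been about as abundant as Sema5b in Cdyl-Het (8.85 ± 0.569 and 8.93 ± 0.739) and was higher than it in every Cdyl-KO library, where Sema5b was at 6.53 to 8.12. The other 6 members, Sema7a among them, had log2 changes of -0.31 to 0.12. Sema6d and Sema6c lost their calls in each of the 6 fits without a library (adjusted p = 0.0589 to 0.0947 and 0.0547 to 0.106), and Sema6d also on the deposited values (0.0740; 0.0285 to 0.110 over all alternatives, and 0.0173 to 0.106 for Sema6c). Sema5a lost it without Het 2, Het 3, KO 1 or KO 2 (0.0616, 0.0753, 0.0603 and 0.0532; 0.0107 to 0.0753 over all alternatives).

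In the Eph system, which signals at contacts between cells, Epha7 rose while Epha4 and the ligand Efnb2 fell. Epha7 (chromosome 4, 28813131 to 28967499), a receptor kinase of ephrin-A ligands, was at 10.1, 8.74 and 7.97 scaled RPKM in Cdyl-Het and at 13.6, 14.1 and 12.1 in Cdyl-KO (log2 change 0.53, SE 0.09, adjusted p = 0.0197). Epha4 (chromosome 1, 77367185 to 77515088), which binds ephrins of both types, was at 4.07, 4.47 and 4.47 against 2.55, 2.42 and 2.81 (log2 change -0.57, SE 0.07, adjusted p = 0.00849). The groups were apart in both genes, in opposite directions. The sum of the 3 listed EphA receptors was 18.1 to 19.2 in Cdyl-Het and 19.9 to 20.9 in Cdyl-KO, while the share of Epha7 in it went from 47.97% ± 4.30 to 65.5% ± 3.76 and that of Epha4 from 23.4% ± 1.87 to 12.8% ± 1.30. Epha2, the third of them, was at 5.31 ± 0.345 and 4.41 ± 0.469 (adjusted p = 0.138; 0.0316 on the deposited values). Epha7 lost its call without Het 2, Het 3, KO 1 or KO 2 (0.0700, 0.0689, 0.0684 and 0.0625; 0.0151 to 0.0700 over all alternatives).

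Of the ephrins, Efnb2, the ephrin-B of arteries that binds Ephb4, was at 11.1, 13.4 and 11.1 scaled RPKM in Cdyl-Het and at 8.61, 8.50 and 8.67 in Cdyl-KO (chromosome 8, 8617434 to 8661242; log2 change -0.42, SE 0.08, adjusted p = 0.0236). Its Cdyl-KO values lay within a narrow band below all Cdyl-Het values. The call was lost without Het 3 or any 1 KO library (0.0599, 0.0716, 0.0696 and 0.0621; 0.0100 to 0.0716 over all alternatives). Efnb1, an X-linked ephrin-B and the most abundant of all 48 genes on average, was at 43.5, 44.1 and 44.5 against 48.1, 49.0 and 51.6. These groups did not overlap, but the difference did not pass (log2 change 0.17, 95% interval 0.05 to 0.28, adjusted p = 0.0917), and Efnb1 made up 74.7% ± 1.999 and 80.3% ± 1.04 of the summed ephrin-B level. None of the 4 listed ephrin-A genes passed in limma (0 of 4; 2 had an unadjusted p under 0.05), with log2 changes of -0.07 to 0.26. Nor did any of the 5 EphB receptors (0 of 5; 3 had an unadjusted p under 0.05), where Ephb4 was at 24.3 ± 1.19 and 25.6 ± 0.370 and the other 4 had log2 changes of -0.36 to 0.23. Ephb1 is listed through its Cdyl-KO level, since its Cdyl-Het mean was below 1 (0.898 scaled RPKM).

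Of the Slit and Robo genes, Robo1 fell and the ligands did not pass. Robo1 (chromosome 16, 72308306 to 73046095), a receptor of Slit proteins, was at 19.6, 21.6 and 20.6 scaled RPKM in Cdyl-Het and at 17.1, 17.0 and 16.9 in Cdyl-KO (log2 change -0.26, SE 0.05, adjusted p = 0.0305). This is the smallest of the 15 called changes, and the groups did not overlap. Robo2, its neighbour on chromosome 16 (73891839 to 74411825), was at 7.24, 6.98 and 7.44 against 6.49, 6.66 and 6.45, likewise without overlap but not past the threshold (log2 change -0.13, adjusted p = 0.175; 0.0282 on the deposited values). The summed Robo level was 26.8 to 28.6 in Cdyl-Het and 23.3 to 23.7 in Cdyl-KO. Robo1 lost its call in the 5 fits without a library other than Het 1 (adjusted p = 0.0845 to 0.0942; 0.00962 to 0.104 over all alternatives). Slit2 was at 4.77 ± 0.233 and 5.34 ± 0.216, and Slit3 at 8.13 ± 0.352 and 7.92 ± 0.746 (adjusted p = 0.206 and 0.799). Their log2 changes were 0.14 and -0.04, and the 95% interval of the second was -0.21 to 0.14.

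**Figure D4:**
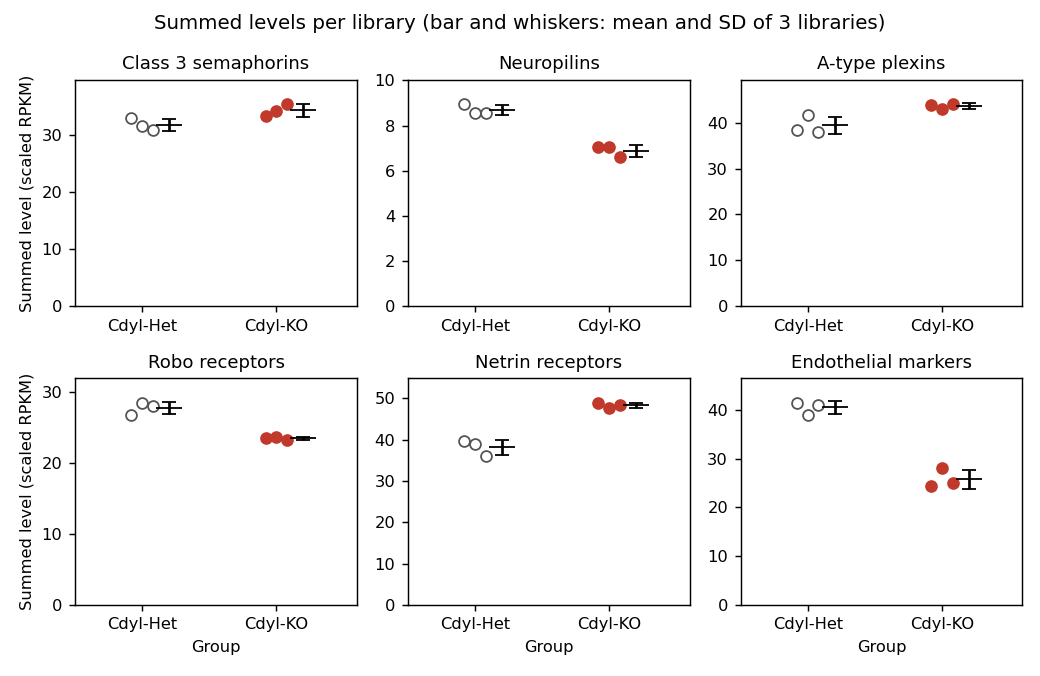
Summed level per library of 5 groups of guidance genes and of the 10 listed endothelial markers (scaled RPKM, axes from 0; open circles Cdyl-Het, filled circles Cdyl-KO, with the mean and SD of 3 libraries beside them). The neuropilin, Robo and endothelial sums are lower in every Cdyl-KO library than in every Cdyl-Het library, and those of the class 3 semaphorins, A-type plexins and netrin receptors are higher. The scaling factors were 1.05 to 1.06 in Cdyl-Het and 0.928 to 0.969 in Cdyl-KO. Without scaling, the sums of the class 3 semaphorins and of the A-type plexins overlap between the groups.

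Of 70 gene symbols, some of them aliases, in a list of proteins that carry these signals inside the cell, 63 were listed, of which 3 rose and 5 fell. Over all genes tested, 4.67% rose and 2.83% fell. The median log2 change of the 63 was 0.03. Crmp1, a mediator of semaphorin signals in neurons, was at 2.39, 1.71 and 2.64 scaled RPKM in Cdyl-Het and at 10.9, 11.01 and 11.3 in Cdyl-KO (log2 change 1.90, SE 0.11, adjusted p = 0.000367). Srgap3 and Rap1gap, GTPase-activating proteins of Slit-Robo signalling and of Rap1, rose by 0.34 and 0.32 on the log2 scale. Mical2, an actin-oxidising enzyme of the MICAL family, fell by 0.62 and the kinase Pak3 by 0.58. Ablim1, an actin-binding protein, fell by 0.45, Chn2, a chimaerin that acts on Rac, by 0.45 and Srgap2 by 0.24. Crmp1 kept its call with any 1 library left out. Each of the other 7 lost it in at least 4 of those 6 fits (adjusted p up to 0.129). On the deposited values 14 genes of the list fell, where 13.3% of all genes tested were lower.

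Of 69 gene symbols, some of them aliases, in a list of other guidance cues and adhesion receptors, 44 were listed, of which 7 rose and 1 fell. Over all genes tested, 4.67% rose and 2.83% fell. The median log2 change of the 44 was 0.02. Slitrk1, a synaptic adhesion protein of neurons, was at 2.78, 2.55 and 2.71 scaled RPKM in Cdyl-Het and at 9.54, 7.17 and 8.70 in Cdyl-KO, without overlap (log2 change 1.36, SE 0.10, adjusted p = 0.00112). Gas1 and Cdon, co-receptors of Hedgehog proteins, went from 34.0 ± 1.84 to 50.7 ± 2.16 and from 13.6 ± 0.971 to 17.7 ± 0.392 (log2 changes 0.56 and 0.36, adjusted p = 0.00543 and 0.0197). The glypican Gpc3, the most abundant gene of this list, went from 194.7 ± 8.71 to 264.4 ± 8.91 (log2 change 0.44, adjusted p = 0.0103). Celsr3, a cadherin of axon tracts, rose by 0.97 from a Cdyl-Het mean of 0.263, so it is listed through its Cdyl-KO level, the teneurin Tenm4 rose by 0.27 and the adhesion protein Flrt3 by 0.35. Flrt1 fell by 0.33. With any 1 library left out, Slitrk1, Gas1 and Gpc3 kept their calls; Flrt1 and Tenm4 lost theirs in all 6 fits, Cdon and Flrt3 in 5 each and Celsr3 in 2 (without KO 2 or KO 3). On the deposited values 8 genes of the list fell, where 13.3% of all genes tested were lower. The nerve marker Tubb3, given beside Unc5a, rose with Crmp1 and Slitrk1 as well, and its part in these rises was not tested.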

How the data were processed

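RNA of 6 libraries was made into stranded total RNA-seq libraries. Reads were processed with STAR, featureCounts 1.6.4 and Subread on build mm10, per the submitters' processing notes; the annotation, strand setting, gene filter and step to the final unit were not found in the labels. The deposited values are read here as RPKM made by the authors: for short single-exon genes with up to 60 reads, 87.4% to 90.1% of values are whole reads within 0.02 at the depth this implies. No table states the unit.

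Each library was divided by a trimmed mean of log ratios to Het 1 (30% of ratios and 5% of levels trimmed at each end). Changes were tested with limma 3.58.1 in R 4.3.3 (empirical Bayes with a trend) on log2(scaled RPKM + 1), with Benjamini-Hochberg adjustment over 11736 genes at 0.05; the step was checked on simulated data. Genes were annotated with GENCODE M21.

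Named are all members past the threshold, the 2 most abundant members of each family, their known partners, and up to 6 called genes per direction of the lists of signalling partners and other cues by smallest p; Flrt3, the 7th, was added after its value was seen. Members and lists were chosen with earlier results of these data known. Alternatives were other scalings, pseudocounts of 0.1 and 0.25, a minimum mean of 2, no trend, a replicate block and each library left out. Counts of marker genes under each setting were added after seeing the data.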

Additional observations from a re-analysis of the deposited data

How the results depend on the processing

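No gene of the 48 that passed changed direction under 13 alternatives; of 194 values, 137 kept the call and 57 did not. On the deposited values, without scaling, limma called 15 members lower (9 with scaling), 14 signalling partners lower (5), 8 other cues lower (1) and 1863 genes in all (880). Genes called lower made up 13.3% of all genes without scaling and 2.83% with it. With upper-quartile scaling limma called 2 other cues lower. The cause was not tested.

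Same-numbered libraries did not deviate together (correlations of -0.052, -0.27 and -0.053). The labels do not say what the numbers share, and 3 pairs are too few to decide whether they pair the libraries. With the replicate block, 4 members were higher (Epha7, Plxna4, Sema3c and Unc5a) and 3 lower (Epha4, Sema3d and Sema5a). The other 8 missed, Nrp2 and Sema3g at an adjusted p of 0.0501 each. It left 1 endothelial marker lower and Tubb3 not past the threshold. The block left 1 signalling partner higher and 0 lower (12 lower at an unadjusted p under 0.05), 3 other cues higher and 0 lower (6 unadjusted), and 337 genes in all.

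With 1 library left out and fewer samples in the fit, 2 to 4 members were higher and 2 to 9 lower. Signalling partners numbered 1 to 2 higher and 0 to 4 lower (7 to 12 unadjusted), and other cues 3 to 5 higher and 0 lower in each such fit (4 to 7 unadjusted). All genes called numbered 253 (without Het 3) to 647 (without Het 1). Members rest on at least 206 reads per library, which limits Efna1 and Ephb1 most. The filter on a mean of 2 removed Sema3d, Sema3e, Ephb1 and Celsr3, so it gave no value for them.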
